A study of Mus musculus with 15 samples.

Results

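Ketone body use and synthesis was followed through 5 genes, Bdh1, Bdh2, Oxct1, Acat1 and Aacs, chosen by name for their place in the pathway. All 5 were found among the 55487 genes of each count table. RNA was taken from left ventricular free wall of 7 male mice with chronic kidney disease and 8 male wild-type littermates, all fed normal chow and 225 days old. The kidney disease mice carry a mutation of Col4a5, a collagen gene of the glomerular basement membrane, which the sample labels call a knockdown and the design text a knockout. The labels name no promoter, Cre or strain for it. The anaesthetic is given both as isoflurane and as ketamine with xylazine. The study asked how cardiac metabolism changes in chronic kidney disease ahead of hypertrophy.

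Ketone bodies are made in liver mitochondria from the acetyl-CoA of fatty acid oxidation and are carried in the blood to the heart, brain and muscle. In a cardiomyocyte mitochondrion, 3-hydroxybutyrate is oxidised to acetoacetate, acetoacetate takes coenzyme A from succinyl-CoA, and the resulting acetoacetyl-CoA is split into acetyl-CoA for the citric acid cycle. BDH1, OXCT1 and ACAT1 catalyse these steps in that order, and the heart is one of the organs that use ketones most readily. AACS and BDH2 are cytosolic: AACS activates acetoacetate for the synthesis of lipids and sterols, and BDH2 is a short-chain dehydrogenase studied both for hydroxybutyrate oxidation and, in the mouse, for iron handling.

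The bases before the annotated starts of 3 of the genes are shown because Bdh1 and Oxct1 are the first enzymes of the mitochondrial route, while Bdh2, which shares the name of Bdh1, lies at the other end of the range of levels. Sequences are from RefSeq on GRCm38, all on the plus strand. They run 5′ to 3′ over the 250 bases that end just before the RefSeq start. For Bdh1 and Oxct1 that start lies inside the gene as counted, which begins at 31422280 and 4026383. The RefSeq table held 5 promoters of 4 of the 5 genes. Bdh1 is shown at the first of its starts, chr16:31422047-31422296, Oxct1 at chr15:4026178-4026427 and Bdh2 at chr3:135280971-135281220.
Bdh1: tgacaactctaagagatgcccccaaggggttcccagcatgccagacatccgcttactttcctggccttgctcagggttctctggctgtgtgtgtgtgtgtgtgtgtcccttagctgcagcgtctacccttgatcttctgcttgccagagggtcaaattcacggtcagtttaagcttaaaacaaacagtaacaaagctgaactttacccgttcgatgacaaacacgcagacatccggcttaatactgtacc
Oxct1: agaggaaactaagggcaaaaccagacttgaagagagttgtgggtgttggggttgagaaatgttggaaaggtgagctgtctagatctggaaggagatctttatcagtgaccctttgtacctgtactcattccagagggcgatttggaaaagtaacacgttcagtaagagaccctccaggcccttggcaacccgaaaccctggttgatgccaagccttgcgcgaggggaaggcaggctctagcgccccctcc
Bdh2: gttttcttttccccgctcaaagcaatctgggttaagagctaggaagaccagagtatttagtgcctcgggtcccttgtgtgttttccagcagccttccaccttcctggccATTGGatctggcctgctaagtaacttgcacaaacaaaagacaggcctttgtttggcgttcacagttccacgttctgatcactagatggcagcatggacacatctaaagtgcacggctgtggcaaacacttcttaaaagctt
Capitals mark the only match among 6 motifs searched on both strands, a CCAAT box on the minus strand of Bdh2, which begins 141 bases before the start. CCAAT was found in 33.8% of 32817 promoters of the same length. The others searched were the nuclear receptor half-site AGGTCA (14.0% of promoters), the extended half-site of the estrogen-related receptors TNAAGGTCA, which contains AGGTCA (1.14%), the GC box GGGCGG (32.7%), the E-box CACGTG (6.02%) and the TATA box TATAAA (12.4%). None of these was present in the 5 promoters of Bdh1, Bdh2, Oxct1 and Aacs, which says only that these letters are not in these windows.

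Library totals were 54263014 to 65519279 counts in kidney disease, against 48748379 to 57962094 counts in wild type. The mitochondrial genome gave 10.5% to 12.8% of counts in kidney disease and 11.7% to 14.4% of counts in wild type. Ttn, the titin gene, had the most counts in 5 libraries (kidney disease 4, 5 and 7, wild type 6 and 7) and mt-Co1 had the most in the other 10. The counts of Col4a5 ran from 522 to 1111 in the kidney disease libraries, against 2442 to 3620 in the wild-type libraries, a log2 change of -2.08 (SE 0.11, edgeR quasi-likelihood test, adjusted p = 3.0e-09), with no overlap between the groups. Levels are given as CPM, a count relative to the total of its library after scaling with TMM factors, and the spread is the SD over animals. All 7 ventricular cardiomyocyte markers were measured, and none changed past the threshold. Their summed level was 60429.9 to 69875.0 CPM in kidney disease (median 64008.6), against 63642.2 to 84277.7 CPM in wild type (median 74123.8). Of the other cell types, 5 of 6 macrophage markers and 3 of 5 fibroblast markers rose. The macrophage markers summed to 301 to 419 CPM in kidney disease, against 211 to 263 CPM in wild type, and the fibroblast markers to 654 to 735 CPM in kidney disease, against 564 to 675 CPM in wild type. The part of these cells and of cardiomyocytes in the levels of the ketone genes was not tested. Of the other markers with enough counts to be tested, 4 of 6 for adipocytes, 1 of 4 for hepatocytes and all 4 each for erythroid, endothelial and atrial cells, none passed, although the summed atrial markers ran from 29.2 to 1378.5 CPM in kidney disease, against 34.4 to 1168.7 CPM in wild type. The summed erythroid markers ran from 222.7 to 583.2 CPM in kidney disease, against 397.5 to 754.2 CPM in wild type.

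No difference in the 5 ketone genes was detected between the groups. None of the 5 genes rose or fell in kidney disease at an adjusted p of 0.05 by edgeR's quasi-likelihood test, and none had an unadjusted p under 0.05. DESeq2 and limma-voom called none of the 5 either. Across all 20718 genes tested, 0.811% were called higher and 0.473% lower, and 12.4% had an unadjusted p under 0.05. The groups overlapped for all 5 genes, while 0.565% of the genes tested had groups that did not overlap. The median log2 change of the 5 genes was 0.05, against 0.00 for all genes tested. In whole tissue, fewer cells of a type and less RNA per cell cannot be told apart.

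The mitochondrial route was expressed far above the cytosolic genes. Per kilobase of exon and averaged over the 15 libraries, Oxct1 had 282 CPM per kb, Acat1 119, Bdh1 35.8, Aacs 1.91 and Bdh2 0.175. Oxct1 stood at rank 105 of 14533 protein-coding genes tested on this scale, Acat1 at rank 246 and Bdh1 at rank 821, whereas Aacs was at rank 8805 and Bdh2 at rank 13171. The order Oxct1, Acat1, Bdh1, Aacs, Bdh2 held in all 7 kidney disease and all 8 wild-type libraries. The ranges of neighbouring genes did not overlap: over the 15 libraries, levels per kb ran from 225 to 317 for Oxct1, 99.2 to 135 for Acat1, 13.7 to 55.9 for Bdh1, 1.16 to 2.48 for Aacs and 0.0913 to 0.290 for Bdh2.

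**Figure D1:**
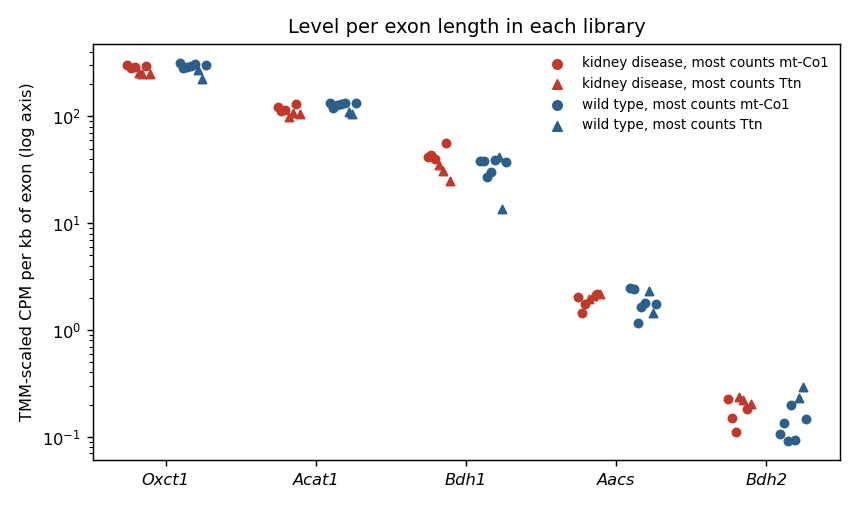
Level of each gene in each library, as TMM-scaled CPM per kilobase of exon on a log axis, with kidney disease left of wild type and symbols by the gene with the most counts in the library. The 5 genes form separate bands, from Oxct1 at 225 to 317 down to Bdh2 at 0.0913 to 0.290 CPM per kb.

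Bdh1 encodes the mitochondrial dehydrogenase that opens the route in the heart, and among the 3 mitochondrial genes it varied most between animals. In kidney disease libraries 1 to 7 it had 161, 169, 157, 135, 119, 217 and 97.0 CPM. In wild-type libraries 1 to 8 it had 149, 149, 106, 117, 152, 162, 53.2 and 146 CPM. Kidney disease 6 was the highest and wild type 7 the lowest, and the groups overlapped, with 2 of 7 kidney disease animals above all wild-type animals. The mean was 151 ± 38.7 CPM (SD, n = 7) in kidney disease and 129 ± 36.0 CPM (SD, n = 8) in wild type. The log2 change was 0.22 (SE 0.19, adjusted p = 0.72 by edgeR's quasi-likelihood test), with a 95% interval of -0.17 to 0.62. Single animals moved this estimate: it was 0.10 without wild type 7 and 0.11 without kidney disease 6.

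Among the 10 libraries in which mt-Co1 had the most counts, Bdh1 was higher in each of the 4 kidney disease animals (157 to 217 CPM) than in each of the 6 wild-type animals (106 to 152 CPM). A fit on these 10 libraries alone gave a log2 change of 0.37 (SE 0.12, unadjusted p = 0.0069, adjusted p = 0.19 by edgeR), which did not pass. In that fit, 0.242% of genes were called higher, 2.11% of genes had groups that did not overlap with kidney disease on top, and 13.5% had an unadjusted p under 0.05. For Bdh2, Oxct1, Acat1 and Aacs the groups overlapped in these libraries, with unadjusted p of 0.20, 0.58, 0.096 and 0.92 by edgeR. With the leading gene as a covariate over all 15 libraries, Bdh1 had a log2 change of 0.28 (SE 0.16, edgeR adjusted p = 0.37). These sets of libraries were defined from the data and are not groups of the study. Among the libraries led by Ttn, Bdh1 had 97.0 to 135 CPM in 3 kidney disease animals and 53.2 and 162 CPM in 2 wild-type animals.

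Oxct1 encodes the coenzyme A transferase that commits acetoacetate to oxidation and that liver largely lacks. Its level was 1133, 1042, 1065, 947, 928, 1104 and 928 CPM in kidney disease 1 to 7. In wild type 1 to 8 it was 1174, 1060, 1083, 1091, 1156, 1001, 833 and 1112 CPM. The groups overlapped almost fully, and within both groups the lowest values belonged to the libraries led by Ttn. Means were 1021 ± 86.4 CPM in kidney disease and 1064 ± 108 CPM in wild type (SD, n = 7 and 8). The log2 change was -0.06 (SE 0.07, edgeR adjusted p = 0.83). Its 95% interval, -0.21 to 0.09, corresponds to between 0.863 and 1.07 times the wild-type level.

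Acat1 encodes the thiolase that splits acetoacetyl-CoA and that also acts in isoleucine breakdown. It had 456, 426, 430, 373, 406, 495 and 394 CPM in kidney disease 1 to 7, and 497, 448, 481, 496, 505, 418, 396 and 507 CPM in wild type 1 to 8. Of the kidney disease animals, 6 of 7 lay below the wild-type mean and 2 lay below every wild-type animal, but the groups overlapped. The mean was 426 ± 40.9 CPM in kidney disease and 469 ± 42.7 CPM in wild type (SD, n = 7 and 8). The log2 change was -0.14 (SE 0.07, 95% interval -0.29 to 0.01), and it did not pass (edgeR unadjusted p = 0.067, adjusted p = 0.45). Within each library, the level of Acat1 per kb was 0.388 to 0.442 of that of Oxct1 in kidney disease, with a median of 0.402, and 0.411 to 0.469 in wild type, with a median of 0.434. This ratio does not depend on how the libraries are scaled, and its ranges overlapped.

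**Figure D2:**
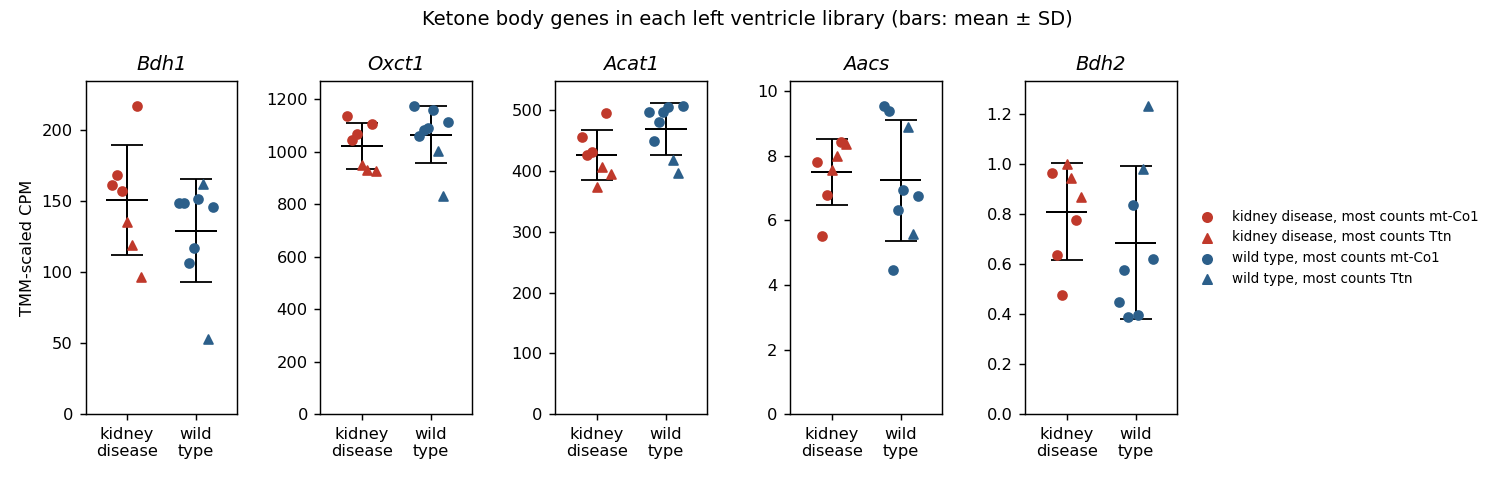
TMM-scaled CPM of the 5 genes in each library, kidney disease left of wild type, with the mean and SD as bars and symbols by the gene with the most counts. The groups overlap for every gene, and the triangles, libraries led by Ttn, lie below the circles for Oxct1 and Acat1.

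The cytosolic genes were low and did not differ past the threshold either. Aacs, the acetoacetyl-CoA synthetase of lipid synthesis, had 5.52 to 8.43 CPM in kidney disease (median 7.78), against 4.46 to 9.54 CPM in wild type (median 6.84). Every kidney disease value lay inside the wild-type range. The log2 change was 0.05 (SE 0.14, 95% interval -0.25 to 0.35, edgeR adjusted p = 0.94), and its sign depended on the libraries used. Adipocytes also express lipogenic genes, and the 6 adipocyte markers summed to 0.308 to 25.5 CPM in kidney disease, against 3.25 to 48.6 CPM in wild type. Their part in Aacs was not tested.

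Bdh2 was counted 27 to 70 times in the kidney disease libraries and 18 to 66 times in the wild-type libraries, so counting error adds to the spread between animals. Its level was 0.475 to 1.00 CPM in kidney disease (median 0.869), against 0.388 to 1.23 CPM in wild type (median 0.598). Wild type 7, the lowest for Bdh1, was the highest for Bdh2. The log2 change was 0.24 (SE 0.26, edgeR adjusted p = 0.80). The 95% interval of -0.30 to 0.78 is the widest of the 5 and reaches from 0.810 to 1.71 times the wild-type level. Per kb, Bdh1 exceeded Bdh2 by 122 to 361 times in kidney disease, against 47.1 to 417 times in wild type.

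Oxct1 and Acat1 differed between the libraries led by Ttn and those led by mt-Co1 within both groups; the cause of this split was not tested. Oxct1 was 928 to 947 CPM in the 3 Ttn-led kidney disease libraries and 1042 to 1133 in the other 4. It was 833 and 1001 CPM in the 2 Ttn-led wild-type libraries and 1060 to 1174 in the other 6. Thus every Ttn-led library lay below every library led by mt-Co1. Acat1 separated in the same way. The share of all genes tested that separate like this was not counted, so the split is not shown to be particular to these genes. It was 373 to 406 CPM in the Ttn-led kidney disease libraries and 426 to 495 CPM in the other 4, and 396 to 418 CPM in the Ttn-led wild-type libraries and 448 to 507 CPM in the other 6. Bdh1 separated in this direction in kidney disease and not in wild type, Bdh2 separated in wild type, with the Ttn-led libraries higher, and Aacs separated in neither group. Because the libraries fall into these sets, joint variation was measured within the 10 led by mt-Co1, as deviations from the group mean of log2 CPM, over the 10 pairs of genes. Oxct1 and Acat1 had r = 0.68 (permutation p = 0.032, adjusted p = 0.16) and rho = 0.68 (permutation p = 0.035, adjusted p = 0.17), with r = 0.83 without the 2 animals farthest from the median of Oxct1. Bdh1 and Aacs had r = 0.73 (permutation p = 0.016, adjusted p = 0.16) and rho = 0.75 (permutation p = 0.017, adjusted p = 0.17), with r = 0.51 without 2 animals. No pair passed after adjustment over the 10 pairs within these libraries. Over all 15 libraries, which span both sets, 4 of the 10 pairs passed by r and 1 of them, Oxct1 and Acat1, also by rho. The permutations over all 15 exchanged libraries between the sets. Their p values therefore cannot separate joint variation between animals from the split between the sets. Oxct1 and Acat1 had r = 0.88 (permutation p = 1e-05, the smallest the permutations can give, adjusted p = 0.0001) and rho = 0.89 (permutation p = 4e-05, adjusted p = 0.0004), with r = 0.86 without 2 animals. Bdh1 and Oxct1 had r = 0.82 (permutation p = 0.00054, adjusted p = 0.0027) and rho = 0.65 (permutation p = 0.011, adjusted p = 0.053), with r = 0.50 without kidney disease 7 and wild type 7. Bdh2 and Oxct1 had r = -0.68 (permutation p = 0.0049, adjusted p = 0.016) and rho = -0.46 (permutation p = 0.086, adjusted p = 0.14). Bdh1 and Acat1 had r = 0.64 (permutation p = 0.0077, adjusted p = 0.019) and rho = 0.57 (permutation p = 0.029, adjusted p = 0.097). Within the 10 libraries led by mt-Co1, these last 3 pairs had r = 0.39, 0.03 and 0.42, with no p under 0.05 before adjustment. The 5 libraries led by Ttn are too few for a value of their own.

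**Figure D3:**
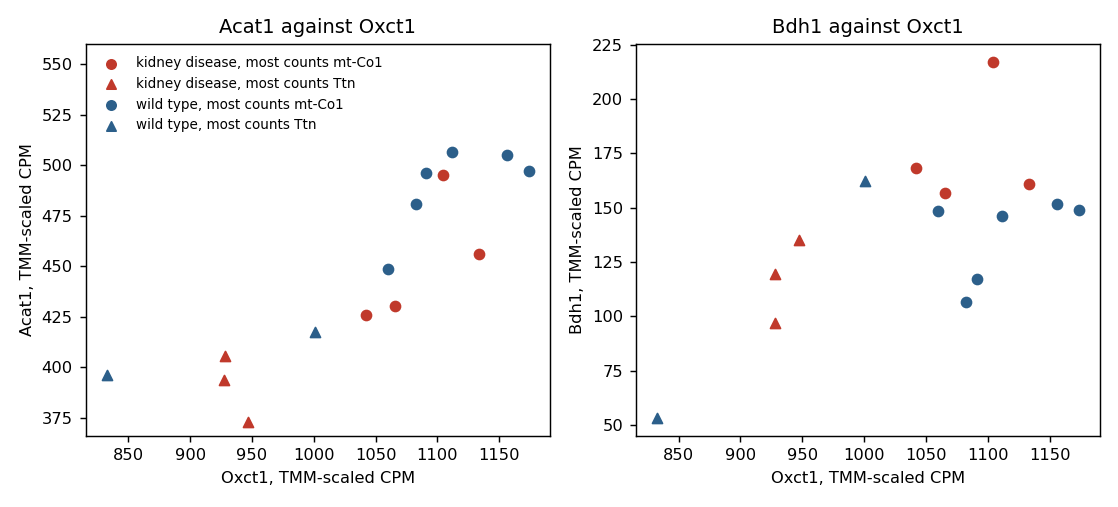
TMM-scaled CPM of Acat1 (left) and Bdh1 (right) against Oxct1 in each of the 15 libraries, coloured by group, with triangles for libraries led by Ttn. The triangles lie at 1001 CPM of Oxct1 or less and the circles at 1042 CPM or more, and wild type 7 is the lowest point in both Oxct1 and Bdh1.

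The genes whose variation between animals was most like that of each gene were ranked among 10052 protein-coding genes with a mean of at least 5 CPM, by r over all 15 libraries after group means were removed. These are the top 3 of many and carry no test. The r within the 10 libraries led by mt-Co1 is given because the libraries fall into sets by leading gene. For that r, deviations were taken from the group means over all 15 libraries, not over the 10. For Oxct1 they were Mrpl10, a mitochondrial ribosomal protein gene (r = 0.97, 0.83 within the 10), Ptgr2 (0.97 and 0.73) and the short-chain acyl-CoA dehydrogenase gene Acads (0.96 and 0.86). For Acat1 they were Serf2 (0.98 and 0.93), the cysteine desulfurase gene Nfs1 (0.97 and 0.92) and Ifngr2 (0.97 and 0.92). Bdh1 was most like the glycosyltransferase gene Mgat1 (0.95 and 0.83), the stress-response factor gene Atf5 (0.93 and 0.62) and the copper transporter gene Slc31a1 (0.92 and 0.84). Bdh2 was most like Dusp11 (0.93 and 0.86), Dmtf1 (0.89 and 0.74) and Ddi1 (0.88 and 0.86). Aacs had the lowest top values, with the kinase gene Prkcz (0.80 and 0.83), the nuclear pore gene Nup107 (0.75 and 0.87) and Ddx31 (0.75 and 0.71). None of these 15 genes differed between the groups at an adjusted p of 0.05.

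The rest of the pathway was described from lists of 26 further genes, of which 16 had enough counts to be tested. None rose and none fell by edgeR's quasi-likelihood test, nor by limma-voom or by DESeq2, which gave 15 of them an adjusted p. By edgeR, 2 of the 16 had an unadjusted p under 0.05, against 12.4% of all 20718 genes tested. The median log2 change was -0.03. The smallest adjusted p was 0.30. The 4 hepatocyte markers summed to at most 2.56 CPM in kidney disease and 0.776 CPM in wild type.

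Among the solute carriers listed, Slc16a1, which encodes the monocarboxylate carrier MCT1, had the highest level, 62.5 CPM per kb in kidney disease and 63.7 CPM per kb in wild type. It had 277 ± 23.7 CPM in kidney disease and 282 ± 59.9 CPM in wild type (SD, n = 7 and 8), a log2 change of -0.03 (SE 0.11). Bsg, the basigin gene needed to place the transporter in the membrane, had 1089 ± 145 CPM in kidney disease and 1011 ± 126 CPM in wild type, a log2 change of 0.11 (SE 0.09). Slc16a7, which encodes the high-affinity transporter MCT2, had 12.4 to 19.9 CPM in kidney disease, against 9.05 to 17.6 CPM in wild type. Its log2 change was 0.31 (SE 0.13, unadjusted p = 0.024), and it did not pass over all genes (edgeR adjusted p = 0.30). The succinyl-CoA ligase genes Suclg1, Suclg2 and Sucla2, whose enzyme shares succinyl-CoA with OXCT1, had log2 changes of -0.05, -0.07 and -0.02.

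Among related enzymes, the cytosolic HMG-CoA synthase gene Hmgcs1 had 24.1 ± 1.02 CPM in kidney disease and 26.5 ± 3.13 CPM in wild type (log2 change -0.14, SE 0.07, edgeR adjusted p = 0.45). The cytosolic thiolase genes Acat2 and Acat3 have similar sequences and may share reads, so their values are uncertain. Acat3 had 4 to 14 counts in the kidney disease libraries and 5 to 20 in the wild-type libraries (log2 change -0.70, SE 0.32, edgeR adjusted p = 0.39). The testis transferase genes Oxct2a and Oxct2b had at most 6 counts in any library, and the receptor genes Hcar2, Ffar2 and Ffar3 at most 13. Of the regulators, Ppara, Ppargc1a and Sirt3 had log2 changes between -0.03 and 0.01, while Fgf21 and Foxa2 had at most 6 counts in any library.

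**Figure D4:**
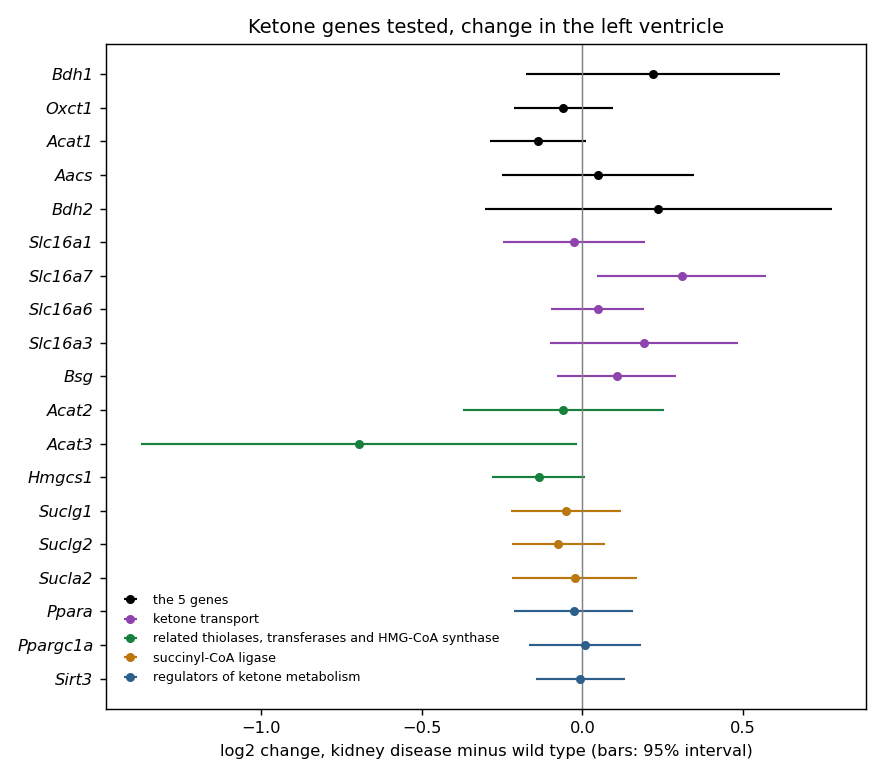
Log2 change, kidney disease minus wild type, of the 5 genes and 14 of the other ketone genes tested, with 95% intervals from the edgeR fit. The intervals of all 5 genes cross 0, from Acat1 at -0.14 to Bdh2 at 0.24, and those of Slc16a7 and Acat3 do not, before adjustment over all genes.

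Neighbouring transcripts bear on 2 of the counts. Of the 3888 exon bases of Bdh1 (ENSMUSG00000046598, chromosome 16, 31422280 to 31458901, GRCm38), 533 are shared with exons of the antisense gene Gm15743. That gene had 88 to 162 counts in the kidney disease libraries and 36 to 99 in the wild-type libraries. Bdh1 itself had 5800 to 13408 counts in the kidney disease libraries and 2847 to 8754 in the wild-type libraries. The log2 change of Gm15743 was 0.41 (SE 0.19, unadjusted p = 0.044, edgeR adjusted p = 0.38). Of the 3701 exon bases of Oxct1 (ENSMUSG00000022186, chromosome 15, 4026383 to 4155344), 467 are shared with exons of BC037032 on the opposite strand, which had 381 to 684 counts in the kidney disease libraries and 330 to 513 in the wild-type libraries. The sources used here do not state whether reads were assigned by strand, and reads in the shared bases cannot be told apart. Bdh2 (ENSMUSG00000028167, chromosome 3, 135281221 to 135304426), Acat1 (ENSMUSG00000032047, chromosome 9, 53580522 to 53610382) and Aacs (ENSMUSG00000029482, chromosome 5, 125475814 to 125517410) share no exon base with another annotated gene.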

How the data were processed

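Left ventricle RNA of 7 kidney disease and 8 wild-type mice was sequenced, 1 library per animal, after ribosomal RNA removal (KAPA RiboErase, per the labels' protocols). The design text calls the animals biological replicates. The authors deposited raw counts per gene, with CPM and FPKM values, for 55487 Ensembl genes. Per the submitters' processing notes they used STAR 2.7.9a, Subread, featureCounts 2.0.3 and GRCm38. The sources used here do not state the counting options. The deposited CPM and FPKM values were recomputed from the counts within a relative tolerance of 1e-06 in all 15 libraries and not used further. Symbols came from GENCODE M21, which held 55227 of the identifiers.

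Of 49 pairs of libraries within groups, none held identical counts and the least different pair had a chi-square of 8.44 for each degree of freedom. The most different pair, kidney disease 6 and 7, had 112 for each degree of freedom. All libraries were used. Counts were filtered with filterByExpr (minimum count 10; 20718 genes, all 5 among them), scaled with TMM, and fitted in edgeR 4.0.16 under R 4.3.3 with group as the term of a quasi-likelihood test, with Benjamini-Hochberg adjustment over all genes tested and a threshold of 0.05. Log2 changes are kidney disease minus wild type. The fit was tested on simulated counts with known changes. These were drawn without the sets of libraries by leading gene, so that test does not cover the sets. For correlations, log2 CPM had a prior count of 2, and p came from 100000 permutations. The genes and lists were chosen with earlier results of these data known. Named genes were the 5, Col4a5, the other ketone genes, genes overlapping the 5 and the 3 most like each. Single values of some of the other ketone genes are not reported here. Alternatives were DESeq2 1.42.0, edgeR with RLE or upper-quartile factors, limma-voom 3.58.1, an exact permutation test over 6435 splits, no filter or 1 CPM in 7 libraries, removal of mitochondrial genes, the leading gene as a covariate or only the 10 libraries led by mt-Co1, a replicate block, and leaving out each library.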

Additional observations from a re-analysis of the deposited data

Results flagged for a closer look

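A search for single animals set apart from the rest of their group covered 60 groups of values, those of Col4a5, the 5 genes, the 16 other ketone genes tested and 8 sums of cell type markers. It marked 5 values. By chance about 1 in 20 groups, here 3, would be marked. None of the marked values was of the 5 ketone genes themselves, and Bdh1 in wild type 7 was not marked. Wild type 1 had the highest Slc16a1 of its group, 412 CPM, with the next animal at 303 CPM. Kidney disease 6, which also had the highest Bdh1, had the highest Bsg of its group, 1388 CPM against 1119 CPM in the next, and the highest Sirt3, 30.1 CPM against 24.8 CPM. Kidney disease 2 had the highest sum of hepatocyte markers, 2.56 CPM against 0.546 CPM in the next. Kidney disease 1 had the lowest sum of endothelial markers, 690 CPM against 779 CPM in the next.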

How the results depend on the processing

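None of the 5 genes passed the threshold under any alternative or with any library left out. Bdh1 ranged from 0.21 to 0.37 and Bdh2 from 0.16 to 0.39 over the alternatives, Oxct1 from -0.07 to -0.01 and Acat1 from -0.15 to -0.10. With 1 library left out, Bdh1 ranged from 0.10 to 0.30, Bdh2 from 0.15 to 0.41, Oxct1 from -0.10 to -0.04 and Acat1 from -0.18 to -0.11. Aacs turned to -0.019 in the 10 libraries led by mt-Co1 and to -0.027 without wild type 3, within a range of -0.027 to 0.12 over the libraries left out; the cause was not tested. The exact permutation test, unadjusted, gave p = 0.074 for Acat1 and 0.26 to 0.64 for the others. Bdh2 was not tested with a filter of 1 CPM in 7 libraries. Counts over all genes moved more. As times the 168 higher and 98 lower genes of the designed fit, DESeq2 gave 2.26 and 2.66 times as many, the leading gene as a covariate 1.99 and 1.92 times, and the libraries led by mt-Co1 alone 0.298 and 0.367 times. No filter gave 0.663 times as many lower genes and the 1 CPM filter 1.57 times. With 1 library left out, the counts were 0.399 (without wild type 5) to 1.17 times as many higher genes, and 0.306 (without wild type 5) to 1.96 times (without wild type 7) as many lower genes. Leaving out 1 library moved the higher count by over 1.5 times for 10 of the 15 libraries and the lower count for 13.

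Deviations of same-numbered animals from their group means had r from -0.20 to 0.42 over the 7 pairs. Of the 7, 2 correlated best with their own number. The highest r, 0.42, was that of kidney disease 7 and wild type 7, both led by Ttn. Animals can be paired without their counts deviating together, so these values cannot settle whether the numbers pair the samples. A fit with the replicate number as a block, on the 14 libraries with shared numbers, gave 0.393 times as many higher and 0.510 times as many lower genes, and Bdh1 had a log2 change of 0.29, Bdh2 of 0.29, Oxct1 of -0.04, Acat1 of -0.12 and Aacs of 0.07, none of which passed. The depth limits Bdh2, at 18 to 70 counts per library. The other 4 genes had at least 207 counts in every library.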
